A study of Mus musculus with 19 samples.

Results

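The accessible regions of the Irf8 locus were taken from a consensus list of ATAC-seq peaks in primary mouse bone marrow-derived macrophages. ATAC-seq marks open chromatin by the insertion of sequencing adapters with the Tn5 transposase. A region belonged to the locus if at least 1 of its bases lay in chromosome 8 from 121420000 to 121570000 of mm39. This window reaches from -43.1 kb to 106.9 kb relative to the start of Irf8, which was placed at 121463100 on the plus strand. Of 140383 peaks in the list, 42 met this rule. All distances below run from that start to the summit of a peak, the base of strongest signal in it, with negative values upstream. The start position is approximate.

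The labels describe 19 samples in 10 groups. The 10 Smarca5-/- samples came from Smarca5lox/lox Csf1r-Cre mice, in which Smarca5, the gene of an ISWI remodelling ATPase, was deleted, and the 9 wild-type samples came from Csf1r-Cre mice. The Csf1r promoter that drives Cre is active in the monocyte and macrophage lineage. Cultures of both genotypes received 4-hydroxytamoxifen daily over 7 days of differentiation. Within each genotype, cells were given LPS (10 ng/ml) for 1 or 2 h, given interferon beta (100 U/ml) for 1 or 2 h, or left untreated. Each group held 2 samples, except that wild-type cells after 1 h of interferon beta were represented by 1. The study asked how loss of the remodeller alters chromatin in these macrophages. The list holds pooled values and does not say which samples entered each, so none below belongs to a genotype or a treatment and no replicate error applies. The depth of each sample is unknown.

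Irf8 encodes interferon regulatory factor 8, a transcription factor that directs myeloid progenitors towards monocytes and dendritic cells and restrains granulocyte production. IRF8 binds DNA weakly alone and pairs with ETS factors such as PU.1 or with other IRF proteins, and its own gene is induced by interferon gamma. In mouse, distal elements of Irf8 are known by their distance from the start. The -50 kb element binds PU.1 in myeloid cells. The +32 kb element carries BATF3-dependent activity in type 1 conventional dendritic cells, the +41 kb element depends on E proteins in dendritic cell development, and the +56 kb element acts in monocytes and their progenitors. The protein-coding genes next to Irf8 are Cox4i1 upstream and Foxf1 downstream in the RefSeq annotation of GRCm38.p6, used here only for gene order.

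The Irf8 promoter lay within the widest region of the locus. That peak spans 121462673 to 121463488 on chromosome 8, which is 816 bp, wider than 99.1% of all peaks. It begins 427 bp before the start of Irf8 and ends 388 bp after it, with its summit 93 bp before the start. Its fold enrichment, the authors' ratio over background, was 18.6, higher than 82.2% of the list. Its -log10 q, which measures how surely a peak stands out and grows with read number, was 354, higher than 91.7% of the list. It was the only member with a summit within 1 kb of the start.

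The bases just before the start of Irf8 are shown because they hold the letters of a motif known from interferon-induced promoters. The RefSeq promoter table of GRCm38.p6 gives 2 entries for Irf8, and the 250 bases before the start of the upstream entry are chr8:120736108-120736357 in that build, plus strand, printed 5′ to 3′. Capitals mark matches to TTCNNNGAA, the gamma-activated site (GAS).
Irf8 promoter: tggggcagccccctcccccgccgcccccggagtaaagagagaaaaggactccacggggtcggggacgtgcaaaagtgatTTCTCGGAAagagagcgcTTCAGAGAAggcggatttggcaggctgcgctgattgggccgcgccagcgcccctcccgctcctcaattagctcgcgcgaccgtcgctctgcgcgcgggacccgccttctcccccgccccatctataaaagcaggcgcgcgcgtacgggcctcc
The letters TTCNNNGAA occurred at positions -171 to -163 and again at -153 to -145, counted with -1 as the last base before the start. The motif is its own reverse complement, so both strands read the same matches. Of 32851 promoters in the table, 7.02% held at least 1 match in the same 250 bases and 0.317% held 2 or more. The peak reaches 177 bp further upstream than these 250 bases, if the start of both builds is the same base. The downstream entry held 0 matches to TTCNNNGAA.

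The other 5 motifs searched on both strands had 0 matches in either entry. These were GAAA repeated after a gap of 2 bases (paired IRF sites, in 2.98% of all promoters), GGAA followed after a gap of 2 bases by GAAA (an ETS site beside an IRF site, 2.30%), GAGGAAG (a PU.1-like site, 10.6%), TGANTCA (AP-1, 6.75%) and TTGCNNAA (a C/EBP-like site, 9.56%). Matches to the IRF and the ETS with IRF motif can overlap each other. The 250 bases of the upstream entry were 67.2% G or C, against a median of 52.4% over all promoters.

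Upstream of the promoter, 13 peaks formed the stretch with the highest median -log10 q among the 4 stretches of more than 1 peak. Their median fold was 10.1, with a range from 4.10 to 22.3, and their median -log10 q was 102, with a range from 13.3 to 573. The medians over the whole list were 9.85 for fold and 45.3 for -log10 q. Of these 13 peaks, 12 lay above the list median of -log10 q, where 50% of all peaks lie.

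The highest -log10 q of the locus, 573, belonged to a peak at -20.2 kb, from 121442765 to 121443093. It was higher than 96.0% of the list, and its fold was 19.0. A neighbour at -21.0 kb, from 121442018 to 121442314, had a fold of only 10.1 and yet a -log10 q of 254. The pair is separated by 450 bp.

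The highest fold of the locus, 22.3, was found at -10.9 kb, from 121452072 to 121452325, with a -log10 q of 192. It was the only member with a fold of at least 20, a value reached by 15% of all peaks. A peak at -27.0 kb, from 121436042 to 121436208, had a fold of 16.7 and a -log10 q of 102. Between the promoter and the peak at -10.9 kb there was 1 weak region, at -8.33 kb, with a fold of 4.91 and a -log10 q of 13.3.

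The most distal upstream members lay together near -39 kb. A peak at -38.5 kb, from 121424523 to 121424806, had a fold of 13.2 and a -log10 q of 201. Close by, 2 pieces that touch, from 121423902 to 121423945 and from 121423946 to 121424020, had folds of 11.1 and 10.5. With 44 bp, the outer piece was the narrowest member. The 6 weaker upstream peaks, at -36.6, -34.1, -31.9, -24.9, -16.3 and -8.33 kb, had folds from 4.10 to 7.82. All but the one at -8.33 kb had a -log10 q above the list median.

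**Figure D1:**
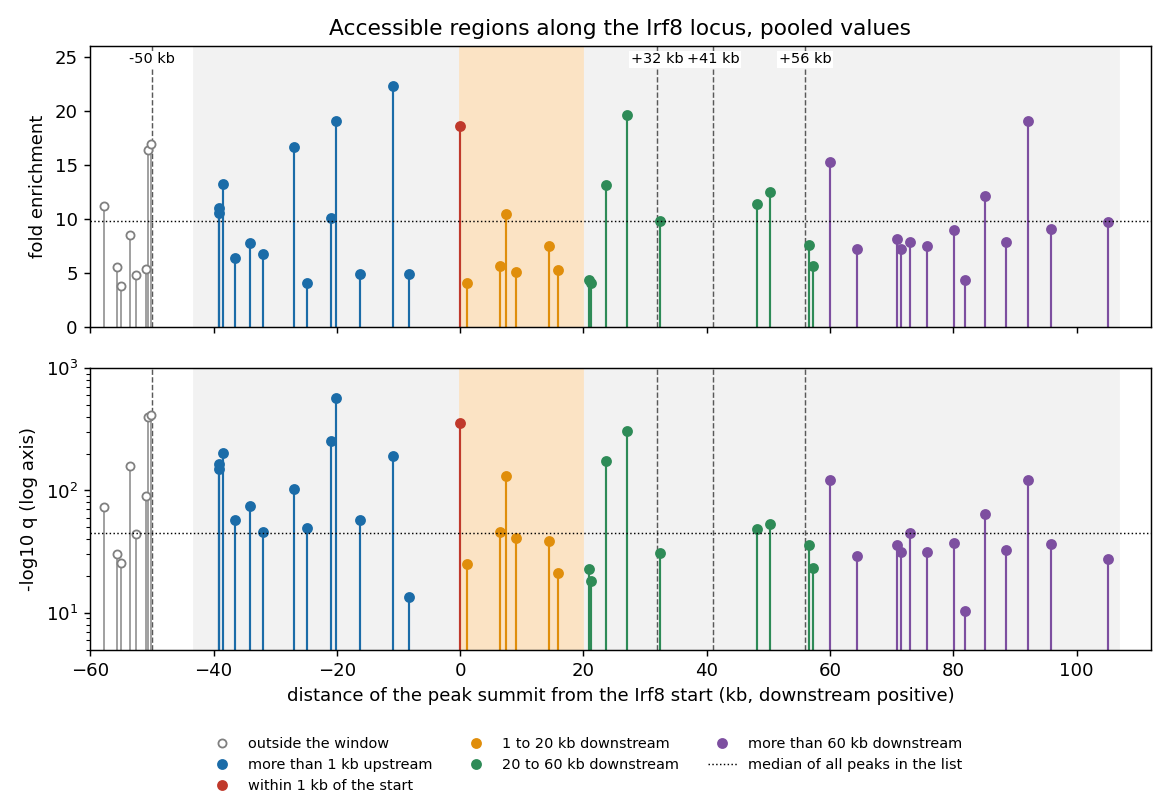
Fold enrichment (upper panel) and -log10 q (lower panel, log axis) of each peak against the distance of its summit from the Irf8 start in kb. Filled points are the 42 members, coloured by stretch, open points are peaks upstream of the window, grey shading is the window, orange shading the first 20 kb after the start, dashed lines the nominal distances of known elements and dotted lines the medians of all peaks. Tall points stand on both sides of the start in the upper panel. In the lower panel the promoter, the peaks at 23.7 and 27.1 kb and several upstream peaks stand highest among the members. The other upstream peaks overlap in height with downstream ones.

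Over the first 20 kb after the start, the approximate length of the gene, 6 peaks lay past the promoter and most were weak. Their median fold was 5.48 and their median -log10 q 39.9, both below the medians of the list. The strongest was at 7.42 kb, from 121470368 to 121470899, with a fold of 10.5, a -log10 q of 131 and a width of 532 bp. It was the only peak of this stretch with a fold above the list median. The other 5, at 1.12, 6.39, 9.09, 14.5 and 15.8 kb, had folds from 4.08 to 7.52.

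The stretch from 20 to 60 kb downstream, where the known downstream enhancers lie, held 9 peaks with a median fold of 9.84 and a median -log10 q of 35.6. The strongest was not at a distance of a named enhancer. It lay at 27.1 kb, from 121490066 to 121490318, with a fold of 19.7, exceeded in the locus only at -10.9 kb, and a -log10 q of 307, exceeded only at -20.2 kb and at the promoter. A companion at 23.7 kb, from 121486671 to 121486921, had a fold of 13.2 and a -log10 q of 175. Past them, no peak of this stretch had a -log10 q above 53.5.

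Near the nominal distances of the 3 known downstream enhancers, the list held peaks below its medians of fold and -log10 q, or no peak. Within 2 kb of +32 kb there was 1 peak, at 32.4 kb, from 121495465 to 121495630. Its fold was 9.84, close to the list median of 9.85, and its -log10 q was 31.1, higher than 36.9% of the list. Within 2 kb of +56 kb there were 2 peaks, at 56.5 kb (121519548 to 121519724) with a fold of 7.62 and a -log10 q of 35.6, and at 57.2 kb (121520225 to 121520395) with a fold of 5.65 and a -log10 q of 23.3. Both were below the list medians. With a median gap of 2.69 kb in the locus, a peak within 2 kb of a nominal distance need not be the named element.

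Within 2 kb of +41 kb there were 0 peaks. That distance fell in the widest gap of the locus, 15.5 kb without a peak between 121495630 and 121511124, and the nearest summit was 7.1 kb away. Of all gaps between neighbouring peaks in the list, 82.3% were shorter, so a gap of this width is common in the list, although the median gap within the locus was 2.69 kb against 5.09 kb in the whole list. Since the depth is unknown, the absence of a peak shows only that none was listed there.

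Past the gap, peaks at 48.1 kb (121511124 to 121511270) and 50.2 kb (121513264 to 121513444) had folds of 11.4 and 12.5. Their -log10 q values, 48.5 and 53.5, were just above the list median. The remaining members of the stretch, at 20.9 and 21.2 kb, touch each other and had folds of 4.39 and 4.13.

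Accessible regions continued more than 60 kb past the start, with 13 further peaks. Their median fold was 8.21 and their median -log10 q 35.6. Of the 13, 3 had a fold above the list median. The strongest by fold was at 92.1 kb, from 121555128 to 121555305, with a fold of 19.1 and a -log10 q of 122. A peak at 60.1 kb, from 121522960 to 121523282, had a fold of 15.3 and a -log10 q of 122, and lies at the edge of this stretch. A peak at 85.2 kb, from 121548253 to 121548476, had a fold of 12.1 and a -log10 q of 64.0. These were also the 3 peaks of the stretch above the list median of -log10 q. The other 10 had folds from 4.40 to 9.71 and reached at most 45.1 in -log10 q. The weakest member of the locus by -log10 q, 10.3, was at 81.9 kb.

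The edges of the window cut the locus unevenly. The last member, at 105 kb, from 121568129 to 121568310, had a fold of 9.71 and a -log10 q of 27.8. It was followed by 42.4 kb without a peak, up to a peak of fold 7.82 and -log10 q of 19.0 that starts at 121610739. The first member, from 121423902, had a fold of 11.1, and 10.6 kb separated it from the nearest peak outside. That outside peak, from 121412776 to 121413294, lay at -50.1 kb, 0.112 kb from the nominal distance of the PU.1-bound -50 kb element. Its fold was 16.9. Its -log10 q, 413, was above that of all members but the one at -20.2 kb. A further peak at -50.6 kb, from 121412519 to 121412618, had a fold of 16.4 and a -log10 q of 401, and one at -51.0 kb had a fold of 5.44 and a -log10 q of 89.3. These 3 peaks are not members and enter no count of the locus.

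By fold alone, most members ranked in the lower part of the list. The median fold over the 42 members was 8.06 (95% order-statistic interval 7.28 to 10.5, which treats peaks as independent), against 9.85 over the list. The list median lies inside that interval. Of the 42, 16 lay above the list median of fold, which 50% of all peaks exceed, and 7 had a fold below 5, as had 10.4% of all peaks. By -log10 q, 22 lay above the list median and 3 were in the top 10% of the list: the peak at -20.2 kb, the promoter and the peak at 27.1 kb. The median width was 188.5 bp, against 196 bp over the list. Spearman's rho between fold and -log10 q was 0.758 across the 42 members and 0.836 across the list, as a description of peaks that share the same libraries.

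At a given fold, members of the locus had a higher -log10 q than most peaks of the list, and this was most marked upstream. Each -log10 q was divided by the median over all peaks in the same of 100 equal bins of fold. The ratio was above 1 in 37 of 42 members, against 50% of all peaks. Its median was 3.44 in the 13 upstream peaks, 2.76 at the promoter, 2.51 in the 6 peaks of the first 20 kb after the start, 1.66 in the 9 peaks from 20 to 60 kb and 1.44 in the 13 peaks beyond 60 kb. The middle 50% of all peaks had ratios from 0.825 to 1.75, a range that holds the medians of the stretches past 20 kb. The highest ratio of the locus, 7.31, was that of the peak at -21.0 kb. The peaks outside the window at -50.1 and -50.6 kb had ratios of 4.06 and 4.05.

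The high ratios upstream had 3 exceptions. Peaks at -27.0, -10.9 and -8.33 kb had ratios of 1.04, 0.928 and 1.05, so the peak of highest fold in the locus had an ordinary -log10 q for that fold. Downstream, the peaks at 23.7 and 27.1 kb had 2.99 and 2.10, the 2 highest ratios past 20 kb, and the peak at 72.9 kb had 2.02. The stretches overlap in this ratio. Fold is a ratio to background, whereas -log10 q also grows with read number. The part of either in these ratios was not tested.

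**Figure D2:**
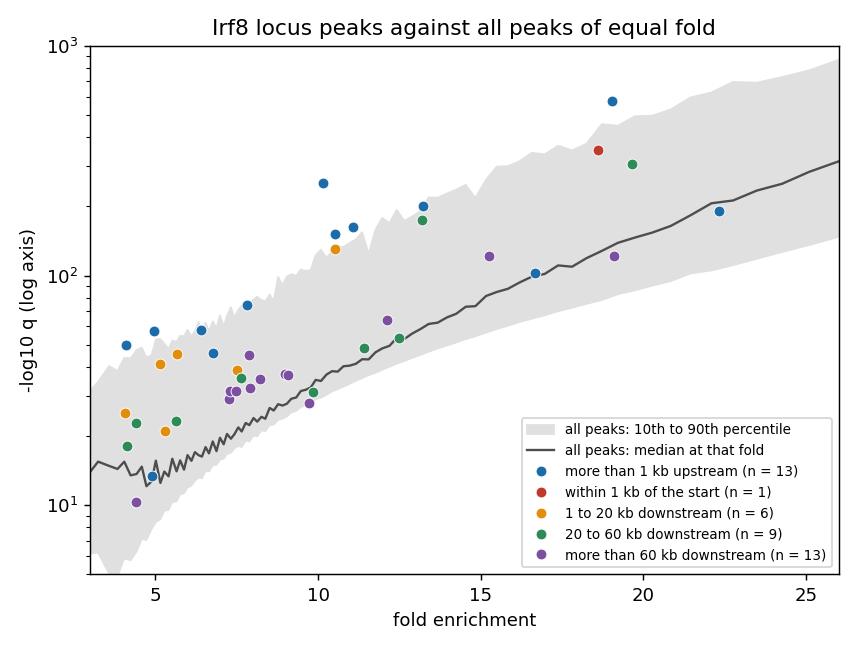
The -log10 q (log axis) of the 42 members against their fold enrichment, coloured by stretch. The line is the median and the grey band the 10th to 90th percentile of all peaks of the list at that fold. Of the 13 upstream points, 10 lie well above the line, most of them at or above the upper edge of the band, whereas points more than 60 kb downstream lie closer to the line.

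**Figure D3:**
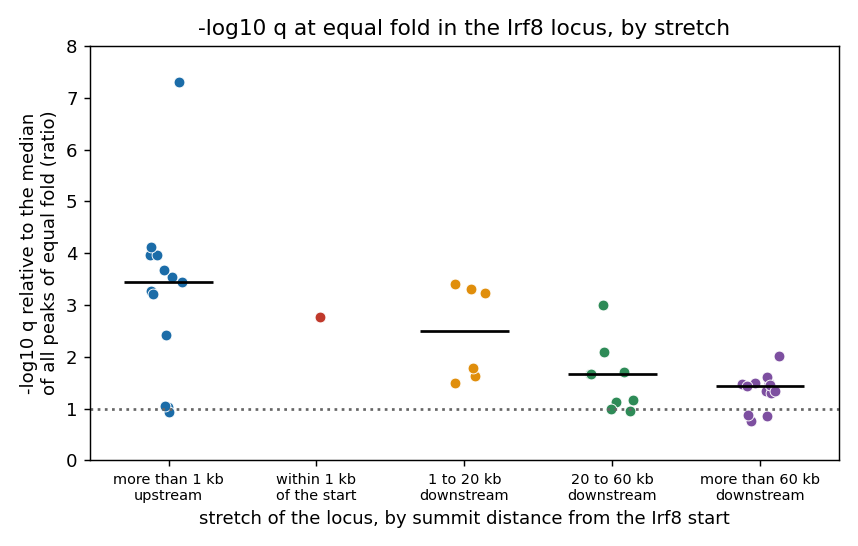
Ratio of each member's -log10 q to the median of all peaks of equal fold, by stretch of the locus; the black bars are medians of stretches with more than 1 peak and the dotted line is a ratio of 1. Stretch medians are 3.44 upstream, 2.51 over the first 20 kb, 1.66 from 20 to 60 kb and 1.44 beyond, with overlapping points.

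Scores are about 10 times -log10 q and many are fractions, as averages of whole numbers give, and each was given the smallest multiplier that turns it into a whole number. A multiplier of 20, the highest tried, was needed by 10 of the 42 members, against 14.6% of all peaks. These were 5 of the 13 upstream peaks, the promoter, 1 of the 6 peaks of the first 20 kb, 3 of the 9 peaks from 20 to 60 kb and 0 of the 13 peaks beyond 60 kb. No test was made between stretches, and 9 of the 10 also had a -log10 q above the list median, so the counts are not separate from signal strength. The exception was the peak at 56.5 kb. The peak at 32.4 kb needed 14 and those at -10.9, 50.2 and 92.1 kb needed 10. A plain average of 1 whole number per sample over at most 19 samples cannot need a multiplier of 20, so these scores were made in another way or from another set of values, which the list does not state. A smaller multiplier does not show that fewer values were averaged.

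The locus was among the densest in the list. Its 42 peaks in 150001 bp compare with a median of 3 peaks over 18129 windows of the same length laid end to end over the assembled chromosomes. Of these windows, 99.7% held fewer peaks and 48 held 42 or more, up to 57. On chromosome 8, 6 of 867 windows held 42 or more. Windows that hold at least 1 peak had a median of 11. The members covered 9270 bp, or 6.18% of the window, against a median of 0.395% over all windows. Of all windows, 98.7% had fewer bases covered. Among windows with at least 1 peak, the median cover was 1.75% and 97.9% had fewer bases covered than the locus.

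**Figure D4:**
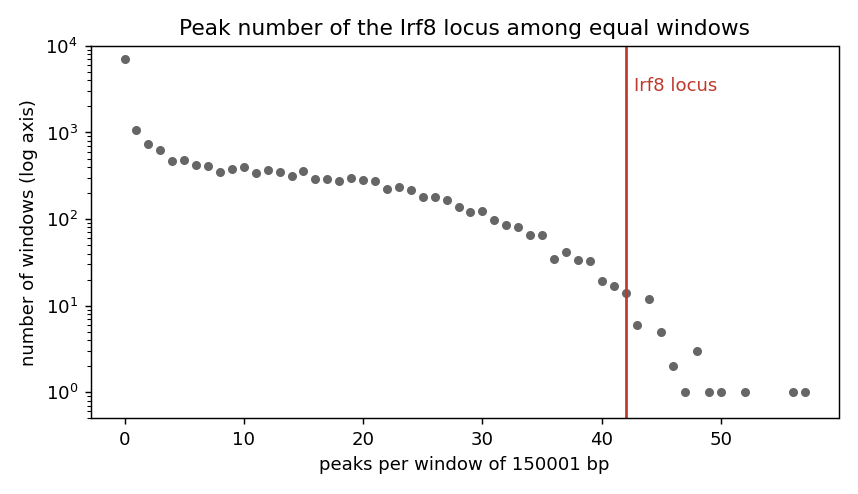
Number of windows (log axis) by the number of peaks they hold, for 18129 end-to-end windows of 150001 bp on the assembled chromosomes. The red line marks the 42 peaks of the Irf8 locus, in the far right tail of the distribution.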

How the data were processed

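The analysis started from 1 consensus peak list of the whole series. The build was mm39 and the tools were MACS2 2.2.7.1, STAR 2.7.9a, deepTools 3.5.1 and Picard 2.27.4, per the submitters' processing notes. What each tool did, how peaks were combined or thresholded and whether reads were shifted is not stated in those notes. The deposited fold enrichment, −log10 q and score are the authors' values, pooled per peak in a way that is not stated, and served only to describe, rank and filter peaks within the list. Coordinates were read as counted from 1: 0 summit offsets then reached the width, against 74 when counted from 0. Neighbouring peaks shared 0 bases when counted from 1, which does not tell the readings apart.

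The members, stretches, motifs and alternatives were chosen with earlier results of these data known. Named peaks were those within 1 kb of the start, the 8 of highest fold, the 3 of highest −log10 q, the widest and narrowest, those within 2 kb of a known element or else the nearest, the strongest per stretch and those at the window's edges and widest gap. Other members were named to account for all. Scores were called whole within 1e-06. No test was made, since peaks are not replicates. Multipliers were tested on simulated data and 100% of 5000 scores were recovered. Tables were computed with pandas 2.3.3 and numpy 2.4.6, intervals with scipy 1.17.1 and plots with matplotlib 3.10.9, in Python 3.11.15. Sequences are from RefSeq (GRCm38.p6); no mm39 sequence was used here, so peaks were not searched for motifs and the macrophage label was not checked against promoters of marker genes.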

Additional observations from a re-analysis of the deposited data

How the results depend on the processing

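Of 24 alternative values over 7 results, 17 stayed within 1.5 times the reported count or within the interval of the reported value, and 7 moved. The intervals, for the median fold and the share of windows, treat peaks or windows as independent and served only to set these labels. With only peaks at or above the list median of −log10 q, the locus held 22 peaks with a median fold of 11.8 and 5722 bp covered. Of these, 13 had a summit before the start, against 14 in the full list, and both counts include the promoter peak. By contrast, 7 lay 20 kb or more downstream, against 22. Weak peaks are removed by construction there, and 98.7% of windows held fewer peaks, against 99.7%. At a fold of at least 15 in place of 20, 7 of the 42 members counted instead of 1. The lowest of these 7, at 60.1 kb with a fold of 15.3, was higher than only 73.8% of the list. A fold of 15 is therefore reached by a larger share of all peaks than of the members. The same holds at 20, which 15% of all peaks reach. Among windows with at least 1 peak, 99.6% held fewer peaks. Taking summits inside the window, merging peaks within 100 bp, measuring from peak centres, an edge at 25 kb or shifted windows moved no result they were run on. The count of summits before the start under the stricter threshold was added after seeing the data. No paired analysis was possible because replicates are not separated in the peak list, and none could be left out. With depth unknown, gaps between peaks show only what was not called.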
